A study of Brassica napus with 3 samples.

Results

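H3K4me3 summits that were listed in the PEG1 line of canola (Brassica napus) and had no counterpart in the control line are described here, on the scaffolds of the B. oleracea reference. A summit is the position of highest signal within a called peak. The chosen summits are those of the PEG1 list with no control summit within 2000 bp on the same scaffold, and a scaffold without control summits counted as having none in reach. They number 4107 of 40707 PEG1 summits, 10.1% (95% Wilson interval 9.80 to 10.4), and lie on 893 of the 1273 scaffolds with PEG1 summits. They are called PEG1-only summits below, and the 36600 remaining ones shared PEG1 summits. They were selected on the measured positions of the summits in both lists, so their number, their strength and their distance to control summits are a description and are not tested.

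The PEG1 group is 1 H3K4me3 library from leaf 4 of 26-day-old plants of a selected epiline, and the control group is 1 such library from the control line, which the protocol calls wild-type. Both lines carry the same cultivar label, and both were raised for 2 weeks on agar with sucrose and 12 days in soil without treatment. The number of plants per library is not stated. The title of the series places the selection in work on energy efficiency and drought tolerance, and its design asks how the selection affected the distribution of histone marks.

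Trimethylation of histone H3 at lysine 4 marks nucleosomes near the 5′ ends of transcribed genes in plants, as in other eukaryotes. It is laid down by methyltransferases of the Trithorax type and read by proteins with domains such as the PHD finger. Brassica napus carries a C subgenome related to B. oleracea beside an A subgenome related to B. rapa. Reads of one subgenome may be placed on the reference of the other, and the handling of such reads is not stated.

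With 1 library per line, the line and the library cannot be told apart, and no p-value is given. The PEG1 list was longer than the control list, 40707 against 36371 summits, and its median score was higher, 21.2 against 16.5. Read depth is unknown for both, and its part in the PEG1-only summits was not tested. With the PEG1 list cut to the 36371 best-scored summits, 2397 or 6.59% were PEG1-only. Under the same rule 893 of 36371 control summits, 2.46%, had no PEG1 summit in reach. On the B. rapa reference, which holds the same libraries and is no independent check, the rule took 3262 of 31464 PEG1 summits, 10.4%, and 570 of 27672 control summits, 2.06%. The intervals below cover counting error only.

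PEG1-only summits were weak. Their score, the authors' own value per peak on a −log10 scale, had a median of 5.67 (quartiles 3.79 and 8.51), against 23.7 (12.4 and 36.8) for shared PEG1 summits. Low scores were not particular to them. Control summits with no PEG1 summit in reach had a median of 4.28, against 16.9 for the other control summits. On the B. rapa reference the medians were 5.69 for PEG1 summits with no control summit in reach and 20.4 for the others. When the PEG1 list was cut by score into 4 classes of like number, 3327 of the 4107 fell in the weakest class, 81.01% of them, and 726 in the second. The third class held 51 and the strongest 3. Seen from the classes, 32.7% (31.8 to 33.6) of the weakest, 7.13% (6.65 to 7.65) of the second, 0.501% (0.381 to 0.658) of the third and 0.0295% (0.0100 to 0.0866) of the strongest class were PEG1-only. Even in the weakest class most summits therefore had a control summit in reach. Many summits had the same score: there were 1070 distinct scores among the 4107 and 7230 among the 40707 of the whole list, and 127 PEG1-only summits had a score of 5.02.

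**Figure D1:**
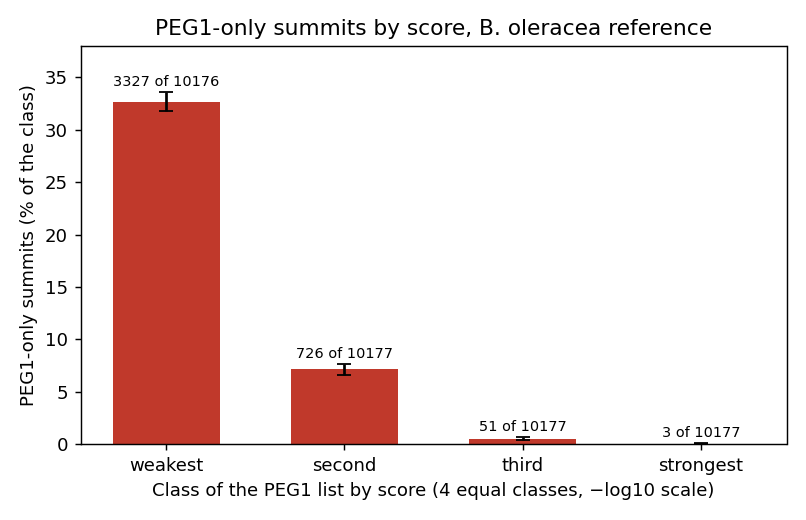
Share of PEG1-only summits (%, vertical axis from 0) in each of 4 score classes of the PEG1 list, with 95% Wilson intervals and the counts above the bars. The share is 32.7% in the weakest class and 0.0295% in the strongest.

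A few PEG1-only summits were strong. The best-scored one lay on scaffold ERB29515 at position 138615 with a score of 58.2, rank 2141 of the PEG1 list. The nearest control summits were 4811 bp to its left, at 133804, and 25679 bp to its right, at 164294. PEG1 had its own neighbouring summits at distances of 4811 and 25717 bp, so that the control list repeated both neighbours and left out the summit between them. On scaffold ERB29990 the summit at 147258 (score 41.9) had control summits 3057 bp to the left and 34271 bp to the right. On ERB29570 the summit at 623238 (39.4) had them 31429 and 2131 bp away, and it was the last PEG1 summit of its scaffold. These were the 3 PEG1-only summits of the strongest class.

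The next 7 scored between 30.9 and 34.5 and lay between control summits too. On ERB29348 there were 2 of them, at 351107 (34.5, nearest control summit 5272 bp away) and at 809708 (30.9, 9157 bp). The others were on ERB29486 at 589856 (34.3, 2792 bp), ERB29393 at 1163998 (33.5, 3968 bp), ERB29354 at 1068163 (33.4, 2404 bp), ERB29840 at 266540 (32.7, 4097 bp) and ERB29865 at 99070 (31.2, 10777 bp). In 9 of these 10 strongest cases no other PEG1-only summit lay between the same control summits. Above the median score of the PEG1 list there were 49 PEG1-only summits in all, on 46 scaffolds. Of these, 45 lay between control summits and 14 had another PEG1-only summit beside them with no control summit between. Among all PEG1-only summits the shares were 90.8% and 28.6%. The median distance of the 49 to the nearest control summit was 4709 bp, with a range of 2016 to 49964 bp.

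Around the limit of 2000 bp the values ran on without a step. The summits just inside the set were at 1011291 on ERB29373 (2001 bp from a control summit, score 3.22), at 117808 on ERB30113 (2005 bp, 2.56) and at 613763 on ERB29489 (2008 bp, 9.87). Those just outside were at 593221 on ERB29434 (2000 bp, 2.48), at 115231 on ERB29390 (1999 bp, 18.4) and at 67499 on ERB29581 (1999 bp, 6.34). The median score was 5.14 for the 448 summits at 2000 to 2500 bp and 5.25 for the 564 at 1500 to 2000 bp. Weak PEG1 summits without a close control summit were thus found on both sides of the limit.

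PEG1-only summits grew sparser with distance from control summits, though many lay far from them. Where the scaffold carried any control summit, the nearest one lay a median of 5598 bp away (quartiles 3339 and 10918). Of the 4057 such summits, 55.1% were over 5 kb, 27.6% over 10 kb, 10.4% over 20 kb and 1.13% over 50 kb from it. Per Mb of sequence between control summits, PEG1 had 22.4 summits (20.5 to 24.3, exact Poisson interval) at 1500 to 2000 bp from the nearest control summit and 19.4 (18.1 to 20.8) at 2000 to 3000 bp. The density was 15.6 (14.6 to 16.6) at 3000 to 5000 bp, 11.6 (10.9 to 12.3) at 5000 to 10000 bp and 8.68 (8.01 to 9.38) at 10000 to 20000 bp. It was 6.67 (5.93 to 7.48) at 20000 to 50000 bp and 1.58 (0.953 to 2.47) beyond. Density thus fell in each further distance class, while the median score stayed between 5.40 and 6.26 in all classes over 2000 bp.

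Control summits around PEG1 summits also thinned out with distance, at lower levels. Per Mb there were 5.65 (4.97 to 6.41) at 2000 to 3000 bp and 1.20 (0.874 to 1.60) at 20000 to 50000 bp. Within 100 bp the densities of the lines were closer, 3482 per Mb for PEG1 summits around control summits and 3111 per Mb for control summits around PEG1 summits. The sequence counted includes any unresolved bases of the scaffolds, and their part in the fall with distance was not tested.

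**Figure D2:**
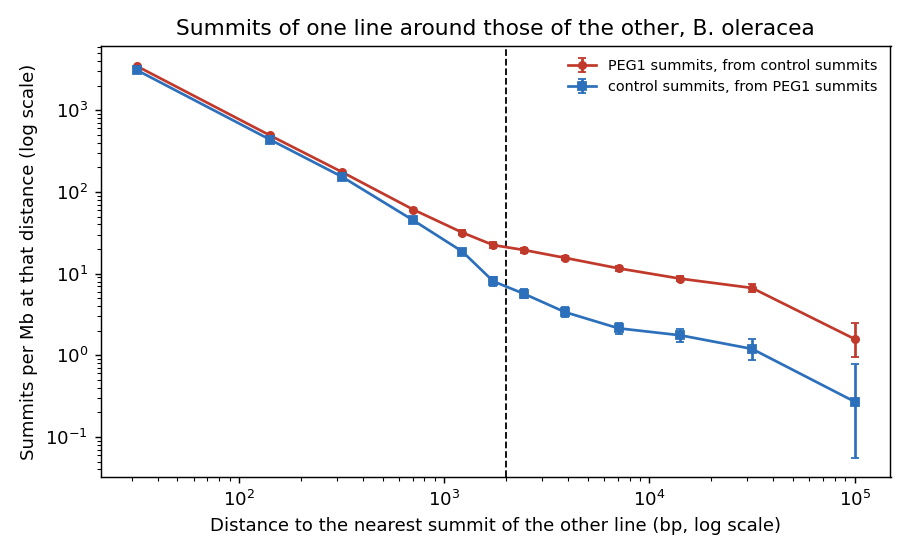
Summits per Mb between 2 summits of the other line (log scale) against the distance to the nearest of these (bp, log scale, bins drawn at their geometric middle, the last bin open and drawn at 100000 bp). Red circles are PEG1 summits around control summits, blue squares control summits around PEG1 summits, bars 95% Poisson intervals, and the dashed line the limit of 2000 bp; beyond it the red points run from 19.4 to 1.58 per Mb.

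The control summits next to PEG1-only summits were of ordinary strength. The nearest one had a median score of 16.1 in the control list, against 17.7 for the control summit nearest to a shared PEG1 summit and 16.5 for the whole control list. The quartiles of the first, 8.34 and 26.9, took in weak and strong control summits alike. By the rule the control summit nearest to a shared PEG1 summit lies within 2000 bp, and that nearest to a PEG1-only summit lies farther off. The comparison thus sets unlike places side by side, here and in the weakest class, and was not tested. Weak shared PEG1 summits stood near weaker control summits. Those in the weakest class of the PEG1 list lay a median of 170 bp from a control summit whose median score was 6.73, whereas PEG1-only summits of that class had a nearest control summit with a median score of 16.4. Within the class the PEG1-only summits were the weaker ones, with a median score of 5.02 (4.95 to 5.02) against 5.84 (5.69 to 5.998).

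The vicinity of PEG1-only summits was less crowded. Their nearest PEG1 summit lay a median of 4483 bp away, against 3065 bp for shared PEG1 summits and 1588 bp for shared ones of the weakest class. The first of these values depends on the limit and was 2449 bp with a limit of 500 bp and 8162 bp with one of 5000 bp. The value for shared summits was not recomputed at these limits, so the direction of the difference there is not known. A further PEG1 summit within 2000 bp was found for 12.6% (11.6 to 13.6) of PEG1-only summits and 34.6% (34.1 to 35.1) of shared ones. The rule has a share in this, since most PEG1 summits are close to a control summit. Control summits with no PEG1 summit in reach likewise had a more distant nearest summit of their own list, at a median of 4850.5 bp. For the other control summits it was 3491 bp. At a wider scale the surroundings of PEG1-only and shared summits differed less. Within 50 kb on either side a PEG1-only summit had 9.07 ± 5.01 further PEG1 summits (mean ± SD over summits, n = 4107), and a shared one had 10.2 ± 5.27 (n = 36600).

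Where a control-free stretch held PEG1-only summits, it mostly held 1. A control-free stretch is the sequence between 2 neighbouring control summits, and 22792 stretches were long enough, at 4002 bp or more, to hold one. Of these, 3155 held at least 1 PEG1-only summit, 13.8% (13.4 to 14.3). They held 3731 in all: 2663 stretches held 1, 418 held 2, 66 held 3, 6 held 4 and 2 held 5. At 57.6% (55.9 to 59.3) of the 3155 stretches the PEG1 summits next to the PEG1-only ones lay within 150 bp of the control summits on both sides, and at 37.0% (35.3 to 38.7) on 1 side. A PEG1-only summit that was alone in its stretch with both flanks so shared was found 1531 times, 37.3% (35.8 to 38.8) of the 4107. Of the control summits at the ends of these stretches, 79.7% (78.7 to 80.7) had any PEG1 summit within 150 bp, against 77.2% (76.8 to 77.6) of all control summits.

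Longer stretches held PEG1-only summits more often but at a lower density. A PEG1-only summit was present in 2.33% (1.93 to 2.82) of stretches up to 6000 bp, 14.8% (14.0 to 15.7) of those of 10000 to 20000 bp and 33.8% (31.2 to 36.5) of those over 50000 bp. Per Mb of the sequence within reach of the rule, these classes had 25.6 (20.96 to 31.02), 16.4 (15.5 to 17.4) and 5.89 (5.42 to 6.40) PEG1-only summits. The 5 longest stretches with a PEG1-only summit held 1 or 2 each. They lay on ERB29450 from 411472 to 853537 (2 summits, best score 14.04), ERB29346 from 1564573 to 1879582 (1, 4.62), ERB29430 from 197152 to 497502 (1, 14.9), ERB29352 from 503370 to 777928 (2, 5.40) and ERB29418 from 841574 to 1106333 (2, 6.34). None of these 5 thus held more than 2 PEG1-only summits.

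PEG1-only summits had another one as their immediate neighbour more often than shared summits did, though in a minority of cases. From a PEG1-only summit the next PEG1 summit along the scaffold was PEG1-only in 645 of 3919 cases, 16.5% (15.3 to 17.7), against 3278 of 35515, 9.23% (8.93 to 9.54), from a shared one and 10.1% over the whole list. At 2 steps the shares were 10.04% (9.12 to 11.04) and 9.87% (9.56 to 10.2). From the second to the twentieth step the share from a PEG1-only summit lay between 9.37% and 11.05%, around the share of the whole list. Neighbours in the same stretch are judged against the same control summits, so the rule itself ties the first step, and no test of it was made. The nearest PEG1 summit of a PEG1-only summit was PEG1-only in 20.4% (19.2 to 21.6) of cases, and that of a shared summit in 7.56% (7.29 to 7.84). For PEG1-only summits it was 11.2% when the PEG1 list was cut to as many best-scored summits as the control list holds. Of the summits in that cut list, 6.59% were PEG1-only.

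**Figure D3:**
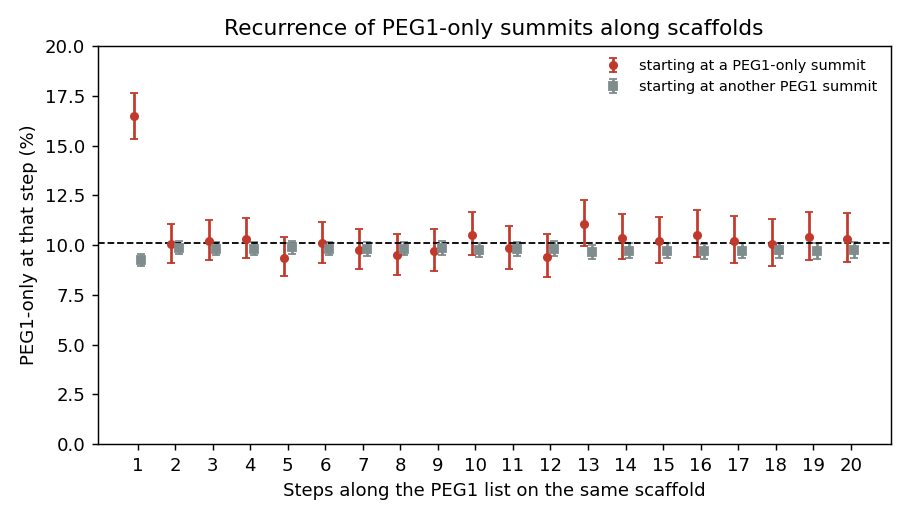
Share of PEG1-only summits (%) 1 to 20 steps further along the PEG1 list on the same scaffold, starting at a PEG1-only summit (red circles) or at a shared PEG1 summit (grey squares), with 95% Wilson intervals; the dashed line is the share in the whole list, 10.1%. The red point at the first step, 16.5%, stands above the line, and the later red points lie between 9.37% and 11.05%.

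Consecutive PEG1-only summits with neither a shared PEG1 nor a control summit between them are called a run. The 4107 summits formed 3475 runs, of which 2933 were single summits and 542 held 2 or more. These 542 runs held 1174 summits, 28.6% (27.2 to 29.99) of all. Whether or not a control summit lay between, an adjoining PEG1 summit was PEG1-only for 29.1% (27.7 to 30.5) of PEG1-only summits. For shared summits this share was 17.1% (16.7 to 17.5). With the PEG1 list cut to the length of the control list the share in runs of 2 or more was 17.7%, while 6.59% of the summits in the cut list were PEG1-only. There were 462 runs of 2 (median span 3958 bp), 72 of 3, 6 of 4 and 2 of 5. Control-only summits made up 2.46% of their list, against 10.1% for PEG1-only summits, so the shares in runs have unlike bases. Among control-only summits 8.17% (6.55 to 10.2) were in runs of 2 or more and the fullest run held 3. Within PEG1-only runs neighbours lay a median of 4218 bp apart (quartiles 1385 and 13876), and 17.7% of the 632 spacings were under 1000 bp. The other 38802 spacings of neighbouring PEG1 summits had a median of 5851 bp, with 7.16% under 1000 bp. Neighbours in a run have no control summit between them by definition, so the rule has a share in this contrast. Counted per summit, a further PEG1 summit within 1000 bp was found for 6.06% of PEG1-only and 14.7% of shared summits. The median score was 5.67 both for summits in runs of 2 or more and for single ones.

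The 5 runs with the most summits spanned 32.4 to 86.7 kb and carried mostly weak summits. On ERB29523 a run of 5 went from 351107 to 385092, with scores of 22.2, 1.55, 9.56, 9.55 and 11.2 in order of position. The control summits on either side, at 346391 and 391233, left a control-free stretch of 44.8 kb. On ERB29464 a run of 5 went from 172970 to 224500, in a stretch of 66.9 kb, with scores of 9.22, 7.48, 3.81, 9.22 and 1.56. Each of these runs thus had 1 summit close to the lowest score listed, 1.30. The runs of 4 with the best scores lay on ERB29448 from 817614 to 860809 (best score 13.2), ERB29490 from 603838 to 636228 (12.4) and ERB29425 from 474068 to 560767 (11.6). Their control-free stretches measured 61.7, 41.3 and 119.6 kb. In 7 of the 10 flanks of the 5 runs the PEG1 summit next to the run lay within 150 bp of the flanking control summit.

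**Figure D4:**
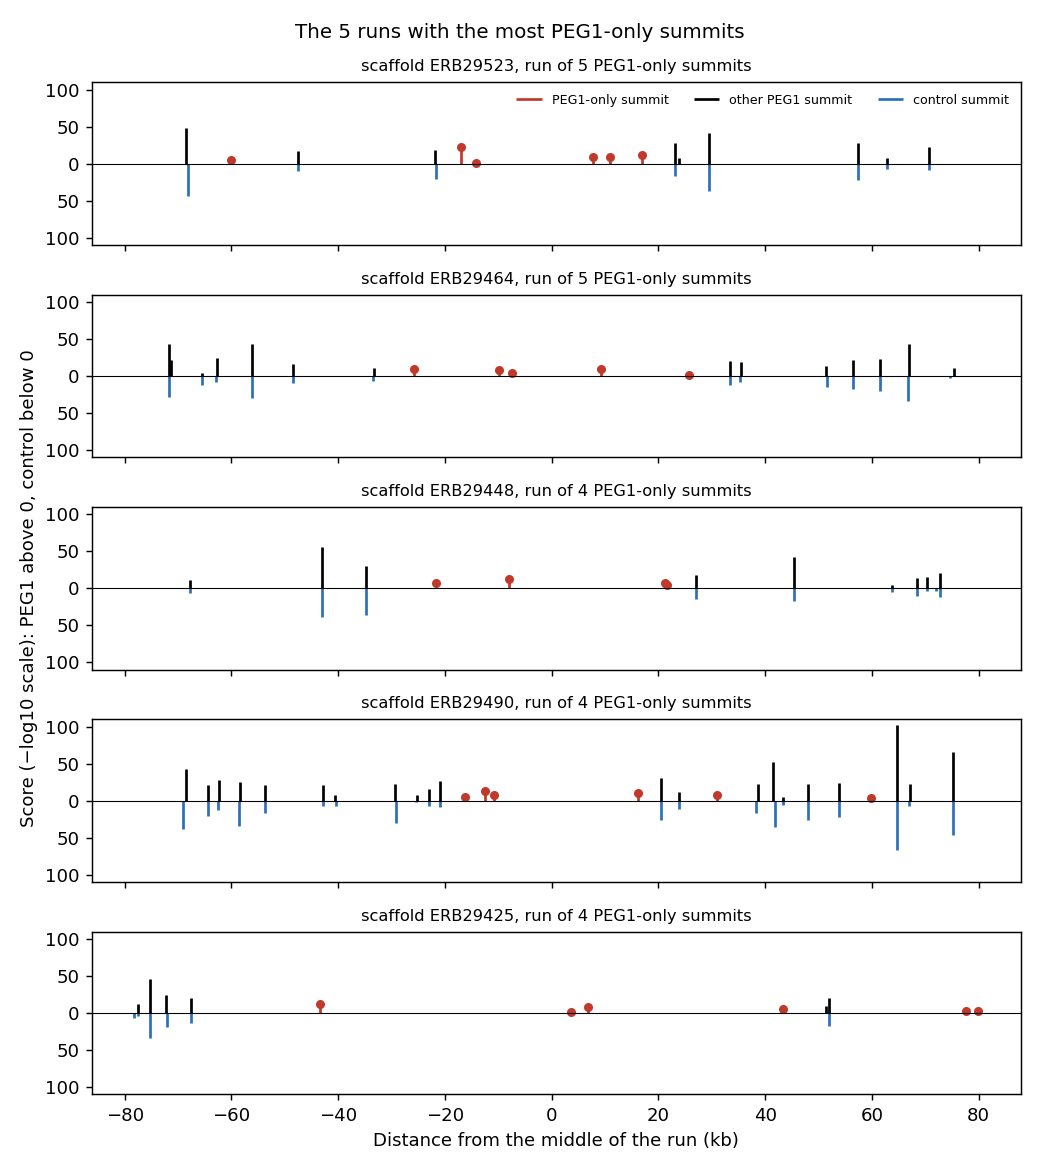
Scores (−log10 scale) of summits within 80 kb of the middle of the 5 runs with the most summits, with PEG1 above the zero line (red with dots, PEG1-only; black, shared) and control below it in blue. Between the flanking control summits the PEG1-only summits reach at most 22.2 and no blue line stands.

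On the scaffolds, PEG1-only summits lay mostly in the interior. Of the 4107, 3731 or 90.8% (89.9 to 91.7) lay between control summits, 326 outside the outermost control summit of their scaffold and 50 on scaffolds without any. Lying outside or on such a scaffold was more frequent than among shared summits, 9.16% (8.31 to 10.1) against 3.28% (3.10 to 3.47). The ends of scaffolds contributed alike, with 162 before the first and 164 after the last control summit. The rule favours these places, because only 1 side can hold a control summit there. Per Mb in reach before the first control summit there were 7.76 (6.61 to 9.05) PEG1-only summits, against 11.7 (11.3 to 12.04) between control summits.

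Near the first base of a scaffold the share of PEG1-only summits among PEG1 summits was higher when all scaffolds were counted. It was 28 of 124, 22.6% (16.1 to 30.7), within 1000 bp of the start, and 16.0% (12.5 to 20.2) from 1000 to 5000 bp. From 10000 to 50000 bp it was 9.92% (8.97 to 10.96), and over 100000 bp 9.98% (9.66 to 10.3). Without the scaffolds that carry no control summit, whose summits are PEG1-only by the rule, the shares were 11 of 107, 10.3% (5.84 to 17.5), within 1000 bp and 39 of 334, 11.7% (8.66 to 15.6), from 1000 to 5000 bp. Both intervals take in the 10.1% of the whole list. Leaving out scaffolds without control summits can only lower the shares, and why the shares were higher was not tested. Scaffolds taken as short by the place of their last summit likewise had a higher share when all were counted. Where the last summit of either line lay within 10 kb, 43 of 203 PEG1 summits, 21.2% (16.1 to 27.3), were PEG1-only. Of the 43, 39 lay on scaffolds without control summits, and on the other scaffolds of this class 4 of 164, 2.44% (0.952 to 6.10), were PEG1-only. Those other scaffolds all have a control summit within their first 10 kb, so the rule itself favours a low share there. In the 5 classes of longer scaffolds the share was between 9.55% and 11.02%.

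Scaffolds without control summits numbered 43 and held 50 PEG1-only summits. On 36 of them there was 1 summit and on 7 there were 2. The median position was 2035 bp from the start and the median score 6.15. Of the scaffolds with 2, the best-scored were ERB30593, with summits at 1046 (9.16) and 1927 (13.99), ERB30559, at 2457 (9.22) and 4405 (5.37), and ERB30281, at 2599 (2.88) and 7057 (7.49). ERB30112 followed with summits at 21820 (7.03) and 108663 (5.96), and ERB31080 with summits at 1627 (1.51) and 2208 (5.33). The best score among the 50, 23.1, was at position 200 of ERB36752, which was picked after its value was seen. These sequences thus held 1 or 2 PEG1 summits each, most of them with low scores, and their lengths are not known.

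The summits farthest from any control summit on a scaffold that had one were also few and weak to moderate. The farthest was at 525520 on ERB29542, 259289 bp beyond the last control summit, with a score of 5.67. On ERB29419 the summit at 1028642 (15.8) lay 179012 bp beyond the last control summit. Next were 723953 on ERB29450 (14.04, 129584 bp), 980682 on ERB29418 (5.37, 125651 bp) and 4084 on ERB29728 (7.74, 117212 bp). PEG1 itself had no nearer summit than 111555 bp for any of these 5, so they stood far from other summits of either list.

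Over the larger scaffolds PEG1-only summits were distributed much like all PEG1 summits. The 251 scaffolds with at least 50 PEG1 summits held 60.3% of PEG1-only and 64.1% of shared summits, and none lacked PEG1-only summits. Their share per scaffold had a median of 9.26% (quartiles 7.34 and 11.5) and a range of 1.52 to 20.0%. The 95% interval left out the share of the whole list, 10.1%, for 18 of the 251, of which 11 were above and 7 below. Some of 251 such intervals would leave out even a common share by counting error alone, and no correction for their number was made. The largest numbers were 45 of 463 PEG1 summits on ERB29325, 42 of 511 on ERB29322, 38 of 356 on ERB29332, 37 of 301 on ERB29337 and 35 of 435 on ERB29323. These are shares of 8.05 to 12.3%, below or little above that of the whole list.

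The highest shares were on ERB29685 with 11 of 55 (20.0%, 11.6 to 32.4), ERB29354 with 24 of 122 (19.7%, 13.6 to 27.6) and ERB29508 with 12 of 62 (19.4%, 11.4 to 30.9). ERB29526 and ERB29602 each had 12 of 65 (18.5%, 10.9 to 29.6). On none of these 5 did a run hold more than 3. The lowest shares were 1 of 66 on ERB29739 (1.52%, 0.268 to 8.10), 1 of 63 on ERB29701 (1.59%, 0.281 to 8.46) and 1 of 56 on ERB29531 (1.79%, 0.316 to 9.45). With 1 library per line, how far such shares vary between libraries of one line is not known.

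**Figure D5:**
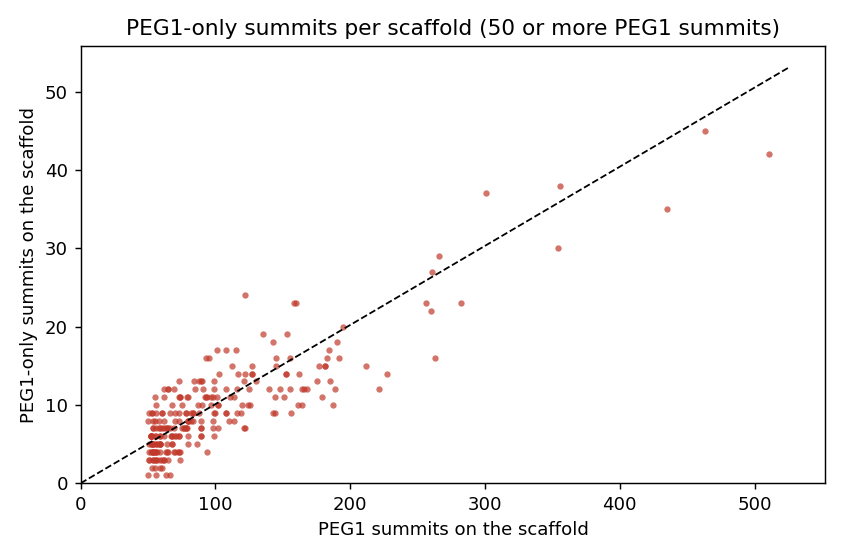
PEG1-only summits against all PEG1 summits for the 251 scaffolds with at least 50 PEG1 summits; each point is a scaffold and the dashed line is the share of the whole list, 10.1%. Points scatter around the line from 1 of 66 on ERB29739 to 24 of 122 on ERB29354 and 45 of 463 on ERB29325.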

How the data were processed

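Nuclei were digested with micrococcal nuclease without crosslinking and mononucleosomes were precipitated with an anti-H3K4me3 antibody, per the labels' protocols. Peaks were called with MACS2 2.0, as the submitters' processing notes give it. The deposited score is on a −log10 scale of significance; whether of p or q is not stated. Which aligner and filters were used, and whether the no-antibody library served as background, is not stated. That library is from the control line, and the PEG1 line has none of its own in the series. Positions are 1-based on the TO1000 BGI scaffolds V2, per the sequence names, and scaffolds are named by the last part of those names. No genome or gene annotation of this build was used here, so scaffold lengths, genes and sequences are not given.

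Each summit was set against the nearest summit of the other list. Shares have Wilson, densities exact Poisson and medians order-statistic intervals, all at 95%. Named were the 10 best-scored PEG1-only summits, the 5 farthest from control, 3 on each side of the limit, the 5 runs with the most summits, the 5 longest stretches, the 5 scaffolds with most PEG1-only summits, those with the 5 highest and 3 lowest shares, and 5 without control summits. The set and the rules were chosen with earlier results of these data known. The alternatives were other limits, equal list lengths, summits at or above each median score and scaffolds with at least 10 control summits. The matching was tested on simulated summits placed well within or well beyond the limit. Places near the limit and scaffolds without control summits were not simulated. Computation used SciPy 1.17.1, pandas 2.3.3 and NumPy 2.4.6 under Python 3.11.15, and figures matplotlib 3.10.9.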

Additional observations from a re-analysis of the deposited data

How the results depend on the processing

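No paired analysis was possible because each line has 1 library, and for the same reason none could be left out. Of the 42 alternative values planned, 29 fell outside the counting interval of the value reported. Only the score difference between PEG1-only and shared summits could have changed sign, and it stayed negative under every alternative. For the other contrasts the values of shared summits were not recomputed, so their direction under the alternatives is not known. Depth is unknown, so how many PEG1-only summits a deeper control library would have matched cannot be read from these lists.

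With limits of 500, 1000 and 5000 bp, 18.4%, 13.7% and 5.62% of PEG1 summits were PEG1-only. The median distance to the nearest PEG1 summit was then 2449, 3199 and 8162 bp, and the median score minus that of shared summits −19.2, −18.8 and −17.0. The share outside the outermost control summits or on a scaffold without any was 6.31%, 7.64% and 13.5%. The median score was 5.998 at 500 bp, and the nearest PEG1 summit was PEG1-only for 19.0% at 1000 bp and 22.8% at 5000 bp. With the PEG1 list cut to the 36371 best-scored summits, which removes its weakest part by construction, 6.59% were PEG1-only, with a median score of 7.88, a difference from shared summits of −17.4 and a distance of 5489 bp. Runs of 2 or more then held 17.7% and the nearest PEG1 summit was PEG1-only for 11.2%. With summits at or above the median score of each list, which also removes weak control summits, these values were 17.0%, 26.1, −11.5, 7267 bp, 32.5% and 21.7%. In that setting 12.6% lay outside the outermost control summits or on a scaffold without any. On scaffolds with at least 10 control summits, a choice that removes the scaffolds without any, 6.17% lay outside. The 6 other values stayed within their intervals. Leaving out the scaffolds without control summits near scaffold starts and among short scaffolds was chosen after the data were seen.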
